A study of Mus musculus with 8 samples.

Results

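The genes described are the Zfp zinc finger genes that were detectably expressed in mouse preimplantation embryos. They were chosen by symbol and by level: a symbol of Zfp followed only by digits, other than Zfp42, Zfp57 and Zfp352, and at least 1 FPKM in at least 2 of the 8 libraries. FPKM is the number of sequenced fragments per kilobase of transcript, scaled to the mapped total of the library. Of 23234 listed genes 337 had such a symbol, and 266 of these reached the limit. The remaining 71 did not, and 2 of them were listed at 0 in every library. Because the measured levels selected the members, a member that reached the limit at only 1 stage or in only 1 genotype had to differ there. Such members are counted or named below. The genes nearest inside the limit were Zfp109, Zfp523 and Zfp276, whose second highest values were 1.05, 1.11 and 1.12 FPKM. The nearest outside were Zfp398, Zfp2 and Zfp389, at 0.982, 0.959 and 0.958 FPKM.

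Zinc fingers of the C2H2 class are short folds held by a zinc ion, and arrays of them read DNA sequence. In the mouse many of these proteins also carry a KRAB domain, which recruits the corepressor Trim28 (KAP1) and, through it, the H3K9 methyltransferase Setdb1 and HP1 proteins. KRAB zinc finger proteins are best known for silencing endogenous retroviruses and for protecting imprinted methylation in the early embryo, and their genes lie in clusters that arose by tandem duplication. Other genes named Zfp encode activators, RNA-binding proteins or ribosome factors and share only the name and the finger.

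The 8 libraries form 4 groups of 2. The first are blastocysts from Tet3-null oocytes and the second blastocysts from wild-type oocytes, each library a pool of 7 embryos taken 96 h after fertilization. The third are 2-cell embryos from Tet3-null oocytes and the fourth 2-cell embryos from wild-type oocytes, each library a pool of 10 embryos at 30 h. Tet3 is a dioxygenase that converts 5-methylcytosine to oxidized forms after fertilization, and the design asks what its absence from the oocyte does to transcripts of the embryo. Tet3-null oocytes came from females with a floxed and a null Tet3 allele (f/-) and Zp3-Cre, a transgene active in growing oocytes, and wild-type oocytes from f/f females, for which the labels name no Cre. All oocytes came from superovulated females and were fertilized in vitro with sperm of CAST/EiJ males, and the embryos were cultured in KSOM medium. The sperm brought a Tet3 allele into every embryo, so Tet3-null describes the oocyte and not the embryo. Age of the females is not given, and nothing in the labels says that replicate pools were collected from different females or on different days. A p-value here therefore weighs a difference against the spread of these pools alone, part or all of which may be technical.

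The promoters of 5 members that the comparisons turn on are shown for their content of CG dinucleotides, which in methylated form are the substrate of Tet3. Each line is the 250 bases before the gene's start in RefSeq on GRCm38.p6, written 5′ to 3′ on the gene's strand, with every CG in capitals. Zfp52 (chr17:21535289-21535538, + strand) and its neighbour Zfp54 (chr17:21422977-21423226, + strand) are KRAB genes of 1 cluster. Zfp958 (chr8:4612920-4613169, + strand) and Zfp367 (chr13:64153200-64153449, - strand) had lower transcript levels in Tet3-null 2-cell embryos. Zfp64 (chr2:168955588-168955837, - strand) had the largest difference in favour of blastocysts.
Zfp52: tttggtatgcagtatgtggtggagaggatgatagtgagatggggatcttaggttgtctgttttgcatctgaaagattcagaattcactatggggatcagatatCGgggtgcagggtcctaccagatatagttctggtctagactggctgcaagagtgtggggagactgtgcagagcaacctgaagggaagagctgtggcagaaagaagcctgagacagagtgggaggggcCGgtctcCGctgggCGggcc
Zfp54: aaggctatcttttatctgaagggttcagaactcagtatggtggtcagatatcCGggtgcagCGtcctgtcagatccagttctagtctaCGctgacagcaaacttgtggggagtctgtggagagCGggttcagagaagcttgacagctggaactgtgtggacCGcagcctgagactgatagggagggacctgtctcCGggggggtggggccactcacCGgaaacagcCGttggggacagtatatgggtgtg
Zfp958: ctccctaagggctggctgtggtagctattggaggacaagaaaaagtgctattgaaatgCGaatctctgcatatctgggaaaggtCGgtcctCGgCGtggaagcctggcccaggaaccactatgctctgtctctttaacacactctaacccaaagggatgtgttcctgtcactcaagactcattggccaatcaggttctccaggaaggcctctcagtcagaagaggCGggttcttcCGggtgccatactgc
Zfp367: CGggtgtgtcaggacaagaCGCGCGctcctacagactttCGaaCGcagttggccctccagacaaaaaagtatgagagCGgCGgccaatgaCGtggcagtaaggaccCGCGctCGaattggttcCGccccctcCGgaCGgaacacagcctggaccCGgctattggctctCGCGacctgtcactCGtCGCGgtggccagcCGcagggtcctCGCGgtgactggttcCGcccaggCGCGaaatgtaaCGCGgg
Zfp64: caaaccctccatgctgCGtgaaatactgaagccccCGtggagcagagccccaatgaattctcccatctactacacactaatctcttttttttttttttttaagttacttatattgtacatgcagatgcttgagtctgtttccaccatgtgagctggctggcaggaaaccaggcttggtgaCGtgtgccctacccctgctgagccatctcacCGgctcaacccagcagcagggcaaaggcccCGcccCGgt

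These windows hold 4 CG at Zfp52, 8 at Zfp54, 6 at Zfp958, 29 at Zfp367 and 6 at Zfp64. Of 9466 windows of tested genes, 11.5% held as many CG as Zfp367 and 87.7% as many as Zfp52. At least 1 CG was present in 98.1% of the windows of tested genes and in 91.7% of all 27025 windows. A CG count describes the letters of the window and not its methylation, which was not measured here.

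Read totals are unknown, and the summed FPKM of a library lay between 600495 and 956335. Tet3 had 3.28 and 4.41 FPKM in Tet3-null 2-cell embryos, against 10.8 and 7.54 FPKM in wild-type 2-cell embryos, with limma's adjusted p of 0.069. It had 0.519 and 0.412 FPKM in Tet3-null blastocysts, against 0.957 and 0.459 FPKM in wild-type blastocysts. These are values of the whole gene and do not show the deleted exons by themselves. The stage labels were checked against marker genes: the trophectoderm list summed to 2544 to 4257 FPKM in blastocysts and 26.6 to 48.5 FPKM in 2-cell embryos, and Zscan4d and Obox1 were listed at 0 in all blastocyst libraries. In blastocysts the same trophectoderm list stood at 2777 and 2544 FPKM for Tet3-null against 4257 and 3957 FPKM for wild-type. Most of this sum was Krt18, at 2170 and 1985 FPKM for Tet3-null against 3138 and 2966 FPKM for wild-type. Krt8 had 571 and 527 FPKM against 1078 and 958 FPKM. Cdx2 and Tfap2c overlapped between the genotypes, and none of the 4 had limma's adjusted p of at most 0.05 there. Between the stages, Cdx2, Krt8 and Krt18 were higher in blastocysts at this p in both genotypes, and Tfap2c was not. The inner cell mass genes were mixed. In wild-type blastocysts Pdgfra and Sox2 were higher at this p, Gata4 was lower and Nanog did not reach it. With Tet3-null oocytes Sox2 did not reach it either. The oocyte and 2-cell markers Gdf9, Bmp15, Zp3, Zscan4d, Obox1 and Dppa3 were lower in blastocysts in both genotypes, though Dppa3 still had 7462 to 10829 FPKM there. Of 8 cumulus and granulosa markers 7 stayed under 1 FPKM throughout, Amh among them at 0, and Tnfaip6 reached 14.3 to 29.5 FPKM in 2-cell libraries. Tet3-null 2-cell replicate 2 stood apart: 4 Y-linked genes summed to 0.158 FPKM there, to 24.9 FPKM in the other Tet3-null 2-cell library and to 31.6 and 34.2 FPKM in wild-type 2-cell libraries. The counts, medians and called genes between the 2-cell groups are therefore given with and without it. In blastocysts the same 4 Y-linked genes summed to 98.0 and 90.7 FPKM for Tet3-null, against 52.9 and 48.3 FPKM for wild-type.

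The 266 members were a broad, mostly weakly expressed set, and together they made up a smaller share of the transcriptome in blastocysts than in 2-cell embryos. Their FPKM summed to 1595 and 1519 in Tet3-null blastocysts and to 1607 and 1513 in wild-type blastocysts. In 2-cell embryos the sums were 3323 and 3017 for Tet3-null and 3429 and 3463 for wild-type. As a share of all summed FPKM this was 0.159% to 0.174% in the blastocyst libraries and 0.475% to 0.571% in the 2-cell libraries. The 2 stages did not overlap by either measure, while Tet3-null and wild-type blastocysts did overlap. The sums of both Tet3-null 2-cell libraries lay below those of both wild-type 2-cell libraries, a difference of levels that was not tested. In a pool of whole embryos, fewer cells of a type and less RNA per cell cannot be told apart, and FPKM is relative to the library's total.

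The median member had 2.43 and 2.34 FPKM in Tet3-null blastocysts, 2.73 and 2.45 FPKM in wild-type blastocysts, 3.89 and 4.49 FPKM in Tet3-null 2-cell embryos and 4.89 and 4.51 FPKM in wild-type 2-cell embryos. Between 212 and 234 members reached 1 FPKM in a given library, and 153 did so in all 8. The limit was reached in every group by 193 members. In 32 members it was reached at the 2-cell stage only and in 20 at the blastocyst stage only, and for these a stage difference follows from the choice of members. In 2 members, Zfp109 among them, it was reached with wild-type oocytes at both stages and in no Tet3-null library. For these a lower level with Tet3-null oocytes follows from the choice in the same way. Replicates agreed most closely in wild-type blastocysts, where r over members was 0.98 on the log2(FPKM + 1) scale, and least in Tet3-null 2-cell embryos, with r of 0.945. The typical (median) member differed between replicates by 0.17 on that scale in blastocysts of either genotype, by 0.34 in Tet3-null 2-cell embryos and by 0.21 in wild-type 2-cell embryos.

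Coding sequences were found for 264 members, all but Zfp572 and Zfp939. A KRAB domain was found in 155 of them and not in 109. KRAB members had a median of 12 fingers and the others 7, the highest count being 37, and 9 members had no finger of the searched form. Among those without one was Zfp259, now called Zpr1. Of the KRAB members 111 of 155 lay in a run of neighbouring Zfp genes, against 25 of 102 placed members without KRAB. The median number of CG in the promoter window was 9 for KRAB members (n = 136) and 14 for the others (n = 81), and 15 over all tested genes. These features come from the genome and the proteins and were not part of the choice of members.

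**Figure D1:**
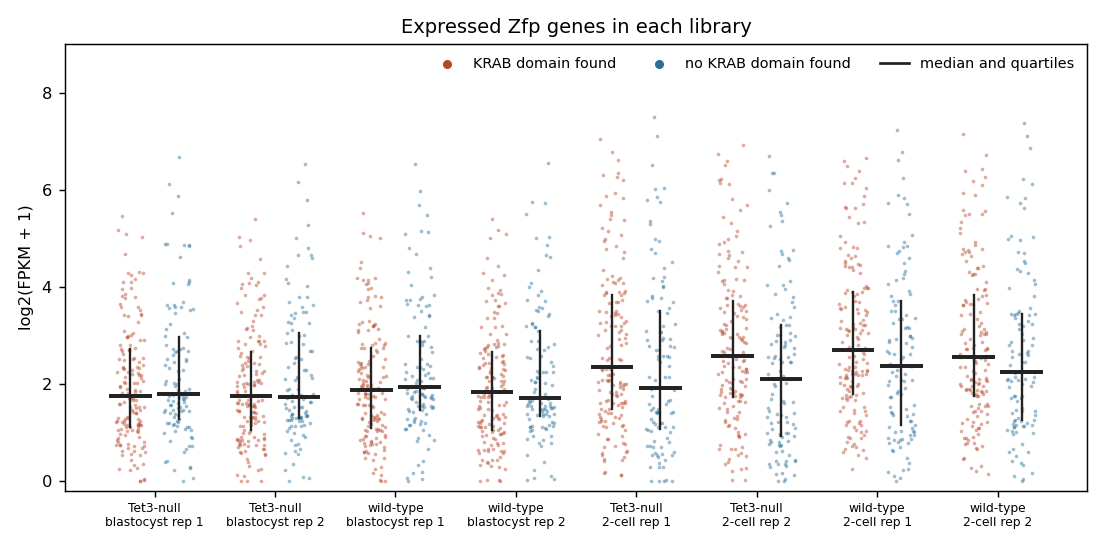
Levels of the expressed Zfp genes in each library on the log2(FPKM + 1) scale, with 155 KRAB members in red and 109 members without KRAB in blue; the horizontal bar is the median and the vertical bar spans the quartiles. KRAB medians sit lower in the 4 blastocyst libraries (2.35 to 2.65 FPKM) than in the 4 2-cell libraries (4.05 to 5.51 FPKM).

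The plot of levels by library shows where the stages part. KRAB members summed to 772 and 730 FPKM in Tet3-null blastocysts, against 1987 and 1948 FPKM in Tet3-null 2-cell embryos. They summed to 767 and 736 FPKM in wild-type blastocysts, against 2042 and 2019 FPKM in wild-type 2-cell embryos. Members without KRAB summed to 819 and 782 FPKM in Tet3-null blastocysts, against 1304 and 1047 FPKM in Tet3-null 2-cell embryos. In wild-type they summed to 836 and 773 FPKM in blastocysts, against 1357 and 1414 FPKM in 2-cell embryos. By these sums every blastocyst library lay below every 2-cell library in both classes. By medians this held for KRAB members and not for the others. The median of members without KRAB was 2.46 and 2.31 FPKM in Tet3-null blastocysts, against 2.77 and 3.31 FPKM in Tet3-null 2-cell embryos. It was 2.82 and 2.26 FPKM in wild-type blastocysts, against 4.19 and 3.72 FPKM in wild-type 2-cell embryos, so wild-type blastocyst replicate 1 lay above Tet3-null 2-cell replicate 1.

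Between the stages, 43 members were higher and 128 lower in wild-type blastocysts than in wild-type 2-cell embryos, while 95 were not called. A gene is called when limma's Benjamini-Hochberg adjusted p over the 13549 genes tested is at most 0.05. Over all genes tested 35.8% were called higher and 38.4% lower. The members' median log2 change (blastocyst minus 2-cell) was -0.60, against -0.08 over all genes. With Tet3-null oocytes 55 members were higher and 116 lower in blastocysts, where 38.9% of all genes were called higher and 35.1% lower, and the median was -0.46 against 0.09. The contrasts of the 2 genotypes share no library, though the fit shares 1 estimate of spread: 110 members were called lower in both, 37 higher in both and none in opposite directions. The share of all genes called in both genotypes was not counted, so this match is not shown to be particular to the members. Of the 32 members that reached the limit only at the 2-cell stage, 27 were called lower in wild-type, and of the 20 that reached it only in blastocysts, 17 were called higher, which follows from their choice. The 214 members that reached it at both stages counted 26 higher and 101 lower, with a median of -0.59.

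By class, 16 KRAB members were higher and 80 lower of 155 in wild-type blastocysts (10.3% and 51.6%), with a median change of -0.65. Of the 109 without KRAB 27 were higher and 46 lower (24.8% and 42.2%), with a median of -0.35. The shares over all genes were 35.8% higher and 38.4% lower in wild-type, and 38.9% and 35.1% with Tet3-null oocytes. With Tet3-null oocytes the KRAB members counted 23 higher and 78 lower (median -0.77), and the others 32 higher and 36 lower (median -0.08). The difference between the classes was not tested, since set tests were not used. The 128 members called lower in wild-type had a median of 9.5 CG in the promoter window, the 43 called higher 11, and the 95 not called 12.5.

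**Figure D2:**
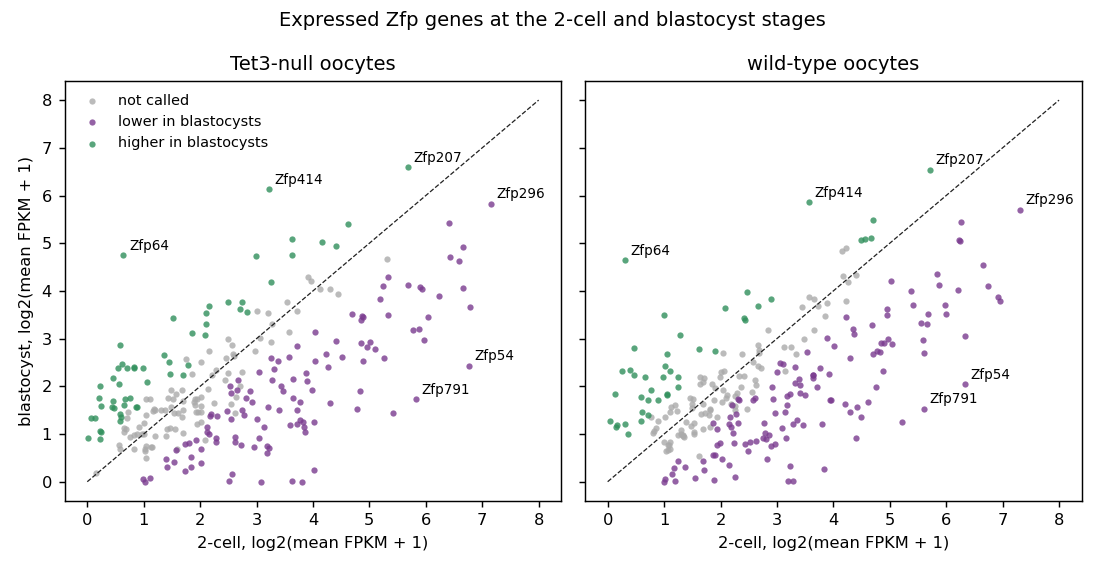
Mean level of each expressed Zfp gene in blastocysts (vertical) and 2-cell embryos (horizontal), log2(mean FPKM + 1), n = 2 libraries a group, for Tet3-null oocytes at left and wild-type oocytes at right; the dashed line marks equal levels. More members lie below the line than above it, 128 called lower and 43 called higher in wild-type, and Zfp64 and Zfp54 lie farthest from it on either side.

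The largest decreases were all in KRAB members. Zfp54 had 3.12 and 3.14 FPKM in wild-type blastocysts, against 88.2 and 71.7 FPKM in wild-type 2-cell embryos, a log2 change of -4.29 (SE 0.16, adjusted p = 1.19e-06). With Tet3-null oocytes it had 4.49 and 4.32 FPKM in blastocysts, against 109 and 106 FPKM in 2-cell embryos. All 4 blastocyst libraries lay far below all 4 2-cell libraries. Zfp791 had 2.33 and 1.44 FPKM in wild-type blastocysts, against 51.3 and 43.9 FPKM in wild-type 2-cell embryos (log2 change -4.09, SE 0.33). Zfp68 had 1.20 and 1.59 FPKM in wild-type blastocysts, against 38.6 and 33.4 FPKM in wild-type 2-cell embryos (log2 change -3.95, SE 0.18). Both were near the limit in blastocysts and among the stronger members in 2-cell embryos, with no overlap. Zfp108, Zfp677 and Zfp936 followed, with log2 changes of -3.57, -3.49 and -3.29. Zfp108 had 0.193 and 0.215 FPKM in wild-type blastocysts, against 14.8 and 11.9 FPKM in wild-type 2-cell embryos, and reached the limit at the 2-cell stage only.

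Of the 6 largest increases 3 were in members without KRAB. Zfp64, whose human homolog maintains transcription of the MLL gene in leukaemia cells, had 24.5 and 23.5 FPKM in wild-type blastocysts, against 0.182 and 0.300 FPKM in wild-type 2-cell embryos (log2 change 4.33, SE 0.20, adjusted p = 2.79e-06). With Tet3-null oocytes it had 27.7 and 24.1 FPKM in blastocysts, against 0.777 and 0.343 FPKM in 2-cell embryos. The gene was thus under 1 FPKM in every 2-cell library, so its place among the members rests on the blastocysts. Zfp414 had 61.4 and 52.7 FPKM in wild-type blastocysts, against 13.4 and 8.40 FPKM in wild-type 2-cell embryos (log2 change 2.32, SE 0.23). Of its 50-base words 25.0% also occur in the predicted gene Gm20507, so its level is uncertain. Zfp395 had 4.27 and 3.81 FPKM in wild-type blastocysts, against 0.295 and 0.330 FPKM in wild-type 2-cell embryos (log2 change 1.94, SE 0.22). Zfp248, Zfp13 and Zfp59, all with KRAB, had log2 changes of 2.50, 2.31 and 2.06, and 52.4% of the words of Zfp59 occur in another gene. Zfp395, Zfp13 and Zfp59, like Zfp64, reached the limit in blastocysts only. All 12 of these extreme members were called under each alternative that kept all 8 libraries. The alternatives reuse the libraries that picked the 12, so this is no separate support.

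The most abundant members were mostly not the ones that changed most. Zfp296, which promotes reprogramming to pluripotency in the mouse, had 57.6 and 54.2 FPKM in Tet3-null blastocysts, 50.1 and 52.1 FPKM in wild-type blastocysts, 179 and 103 FPKM in Tet3-null 2-cell embryos and 150 and 166 FPKM in wild-type 2-cell embryos. It was the highest member at the 2-cell stage and the third in blastocysts, and it fell in wild-type by 1.61 on the log2 scale. At the 2-cell stage Zfp639, Zfp707, Zfp935 and Zfp54 came next. Zfp639 had 109 and 136 FPKM in wild-type 2-cell embryos, and Zfp707 had 99.7 and 141 FPKM. Zfp639 and Zfp707 overlapped each other in these libraries, and both lay below Zfp296 there. Differences between members were not tested. Every 50-base word of Zfp935 also occurs in the gene Gm49359, so its level cannot be assigned to 1 copy.

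In blastocysts Zfp207 led, a protein of the spindle and kinetochores also called BuGZ. It had 101 and 90.6 FPKM in Tet3-null blastocysts, 91.6 and 92.1 FPKM in wild-type blastocysts, 56.2 and 45.2 FPKM in Tet3-null 2-cell embryos and 50.9 and 51.6 FPKM in wild-type 2-cell embryos. It was higher in every blastocyst library than in every 2-cell library (log2 change 0.83 in wild-type, SE 0.15, adjusted p = 0.00178). Zfp414, Zfp296, Zfp330 and Zfp932 completed the 5 highest, and Zfp207 lay above each of them in every blastocyst library. Zfp330, a nucleolar protein, had 43.3 and 44.2 FPKM in wild-type blastocysts, against 25.0 and 25.0 FPKM in wild-type 2-cell embryos.

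Among KRAB proteins with known targets in the mouse, 2 rose, 4 fell and 1 was not called in wild-type blastocysts. Of all genes 35.8% were called higher and 38.4% lower there. Zfp809, which silences murine leukaemia virus through its proline primer binding site, had 33.6 and 31.3 FPKM in wild-type blastocysts, against 19.2 and 23.7 FPKM in wild-type 2-cell embryos (log2 change 0.58, SE 0.16, adjusted p = 0.012). Zfp568, which represses a placental promoter of Igf2, had 10.9 and 7.94 FPKM in wild-type blastocysts, against 4.05 and 4.76 FPKM in wild-type 2-cell embryos (log2 change 0.93, SE 0.25). In both genes the stages did not overlap in either genotype. Zfp819, Zfp961, Zfp708 and Zfp932 were lower in wild-type blastocysts, with log2 changes of -2.17, -1.74, -1.69 and -0.81. Zfp819 had 1.03 and 0.339 FPKM in wild-type blastocysts, against 7.29 and 5.63 FPKM in wild-type 2-cell embryos. Zfp961 had 16.6 and 16.5 FPKM in wild-type blastocysts, against 57.1 and 58.1 FPKM in wild-type 2-cell embryos. Zfp708 and Zfp932 share 100% and 55.5% of their words with other genes. Zfp445, which maintains imprints together with Zfp57, had 4.07 and 4.35 FPKM in wild-type blastocysts, against 5.62 and 5.49 FPKM in wild-type 2-cell embryos (log2 change -0.33, adjusted p = 0.244). Zfp92 was below the limit and Zfp989 was not found among the listed names.

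The genes of the corepressor complex went in both directions. Of 19 tested genes of this list 6 were higher and 4 lower in wild-type blastocysts, where 35.8% of all genes were higher and 38.4% lower. The median log2 change of the list was 0.06. The KRAB members had -0.65 in the same contrast. Trim28, which binds the KRAB domain, had 123 and 134 FPKM in Tet3-null blastocysts, 169 and 138 FPKM in wild-type blastocysts, 31.1 and 28.1 FPKM in Tet3-null 2-cell embryos and 33.5 and 33.9 FPKM in wild-type 2-cell embryos. Its log2 change in wild-type was 2.15 (adjusted p = 1.63e-05). Setdb1 had 8.06 and 8.29 FPKM in wild-type blastocysts, against 8.81 and 9.65 FPKM in wild-type 2-cell embryos, and was not called. Dnmt3b, a de novo DNA methyltransferase, had 46.0 and 37.4 FPKM in wild-type blastocysts, against 4.88 and 3.80 FPKM in wild-type 2-cell embryos. None of the 19 was called between the oocyte genotypes at either stage, with 4 at an unadjusted p under 0.05 in 2-cell embryos and 2 in blastocysts, where 23.7% and 5.46% of all genes reached this. Chd3 did not reach the limit.

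Of 6 members known from embryonic stem cells 5 were lower and 1, Zfp207, was higher in wild-type blastocysts. Over all genes 38.4% were called lower and 35.8% higher there. Zfp281, a factor of the exit from naive pluripotency, had 6.92 and 6.09 FPKM in wild-type blastocysts, against 27.4 and 30.0 FPKM in wild-type 2-cell embryos (log2 change -1.98). Zfp217, a subunit of corepressor complexes, had 6.40 and 4.92 FPKM in wild-type blastocysts, against 27.4 and 25.2 FPKM in wild-type 2-cell embryos (log2 change -2.05). The stages were far apart in both. Zfp143, an activator at many housekeeping promoters, fell by 1.46 and Zfp706 by 1.17 on the log2 scale. Zfp462 stayed below the limit.

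Of 10 members that act on RNA, ribosomes or translation, 3 rose, 3 fell and 4 were not called in wild-type. For all genes the shares were 35.8% higher and 38.4% lower. Zfp598, the ubiquitin ligase of collided ribosomes, had 13.3 and 13.1 FPKM in wild-type blastocysts, against 6.91 and 5.95 FPKM in wild-type 2-cell embryos (log2 change 0.94). Zfp593, whose yeast homolog acts in export of the large ribosomal subunit, had 6.001 and 5.74 FPKM in wild-type blastocysts, against 1.78 and 2.36 FPKM in wild-type 2-cell embryos (log2 change 1.17). Zfp622, a maturation factor of the same subunit, went the other way, with 9.40 and 8.41 FPKM in wild-type blastocysts, against 44.3 and 55.4 FPKM in wild-type 2-cell embryos (log2 change -2.35). Zfp330 rose, and Zfp830 and Zfp259 fell by 1.33 and 0.76. Zfp36 (tristetraprolin, which destabilizes AU-rich mRNAs), Zfp106, Zfp326 and Zfp346 had log2 changes of 0.35, -0.06, 0.48 and -0.89 and were not called.

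Of 8 members that work with chromatin cofactors, 4 were lower, 1 was higher and 3 were not called in wild-type blastocysts. For all genes the shares were 38.4% lower and 35.8% higher. Zfp644, a partner of the H3K9 methyltransferases G9a and GLP, had 1.92 and 2.03 FPKM in wild-type blastocysts, against 21.3 and 19.7 FPKM in wild-type 2-cell embryos (log2 change -2.85, SE 0.36). Zfp148, which binds GC-rich promoters, fell by 1.45. Zfp592 and Zfp687, which form a complex with Zmynd8, fell by 1.21 and 0.93, and their partner Zfp532 had a log2 change of -0.69 (adjusted p = 0.063). Zfp516 was higher, at 1.23 and 1.16 FPKM in wild-type blastocysts against 0.163 and 0.066 FPKM in wild-type 2-cell embryos, and reached the limit in blastocysts only. Zfp335 and Zfp451, a SUMO ligase, had log2 changes of -0.20 and -0.35. Zfp131 was listed at 0 in every library, and Zfp521 and Zfp219 were below the limit. None of the 31 members on these 4 lists was called by limma between the oocyte genotypes at either stage. At an unadjusted p under 0.05 in 2-cell embryos there were 2 of the KRAB proteins, 0 of the stem cell factors, 2 of the RNA and ribosome genes and 2 of the chromatin genes, and 23.7% of all genes reached this. In blastocysts it was reached by Zfp706 among the 31, and by 5.46% of all genes.

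Members were also described by their place in the genome. The runs of adjacent protein-coding genes named Zfp held 136 members in 48 runs, and 122 placed members stood alone. In wild-type blastocysts 20 members in runs were higher and 60 lower, with a median log2 change of -0.51. Of those standing alone 21 were higher and 64 lower, with a median of -0.80, and the difference was not tested. Over all genes 35.8% were called higher and 38.4% lower in this contrast, and no run was tested against these shares. Of the 10 runs with at least 4 members, most members were lower in 4, the runs with Zfp51, Zfp229, Zfp14 and Zfp617. In the run of chromosome 17 that holds Zfp51, Zfp52, Zfp53, Zfp54, Zfp677 and Zfp948, 5 of 6 members were lower in wild-type blastocysts and 1, Zfp53, was not called, with a median log2 change of -2.61. In the run with Zfp229, also on chromosome 17, 5 of 6 were lower. The exception was Zfp947, with 5.64 and 5.72 FPKM in wild-type blastocysts, against 2.38 and 3.10 FPKM in wild-type 2-cell embryos. Zfp229 itself had 1.99 and 1.15 FPKM in wild-type blastocysts, against 21.2 and 22.0 FPKM in wild-type 2-cell embryos. In the run of chromosome 7 with Zfp14, 9 of 14 members were lower, 4 were not called and only Zfp568 was higher. A run of 9 members with Zfp273 was mixed, with 2 higher, 2 lower and 5 not called. The run with Zfp617 had 3 of 4 members lower and the run with Zfp866 2 of 5, with none higher in either. In the runs with Zfp212, Zfp26 and Zfp599, of 4 members each, and in the run with Zfp108, of 7, 1 was higher and 1 lower.

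**Figure D3:**
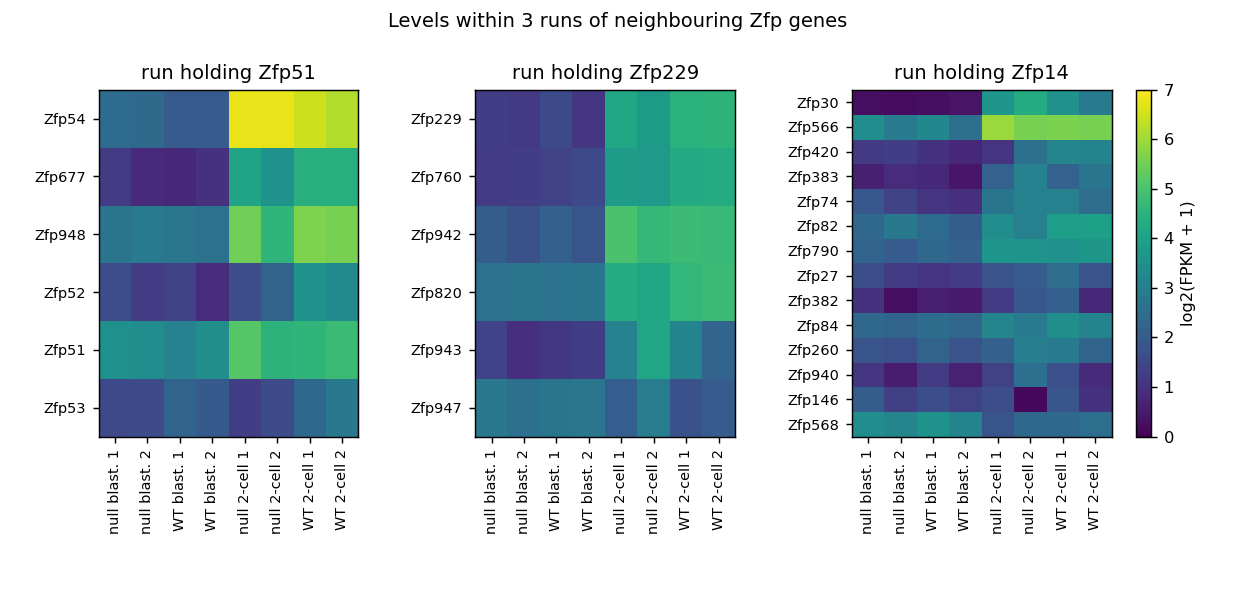
Levels of members in 3 runs of neighbouring Zfp genes, as colour on the log2(FPKM + 1) scale, in the 8 libraries; genes are ordered by their stage change in wild-type. Most rows are darker in the 4 blastocyst columns, and Zfp947 and Zfp568, in the lowest rows of their runs, are brighter in wild-type blastocysts than in wild-type 2-cell embryos.

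The heat map of runs also shows that neighbours differ in level. In the Zfp51 run wild-type 2-cell embryos had 88.2 and 71.7 FPKM of Zfp54, 49.3 and 46.1 FPKM of Zfp948, 10.9 and 9.09 FPKM of Zfp52 and 4.10 and 6.17 FPKM of Zfp53. The share of 50-base words that these 4 genes hold in common with any other gene was at most 0.869%, so reads of neighbours could be separated over most of their length.

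Between the oocyte genotypes few members were called, and none of them was called at the blastocyst stage. In 2-cell embryos 1 member was higher and 5 were lower with Tet3-null oocytes, while 0.613% of all genes were called higher and 2.1% lower. The median member had a log2 change (Tet3-null minus wild-type) of -0.16, and the median of all genes was -0.17, while under median-of-ratios scaling these were 0.05 and 0.01, so the direction rests on the scaling. Without overlap between the groups, 35 members were higher and 86 lower, where 12.6% of all genes were higher and 34.9% lower in this way. The 86 include Zfp109 and Zfp580, which reached the level limit with wild-type oocytes only. After median-of-ratios scaling, a count added later, 72 members were higher and 51 lower, and 23.9% and 20.3% of all genes. At an unadjusted p under 0.05 there were 51 members, where 23.7% of all genes reached this. Without Tet3-null 2-cell replicate 2, a setting for these counts that was added after the data were seen, the median was -0.15 against -0.14 over all genes, and 49 members reached an unadjusted p under 0.05, where 21.5% of all genes did. The remaining Tet3-null library then lay above both wild-type libraries for 65 members and below both for 130, where this held for 23.7% and 49.5% of all genes.

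Zfp572 was the member that was higher. It had 4.06 and 5.35 FPKM in Tet3-null 2-cell embryos, against 1.74 and 0.676 FPKM in wild-type 2-cell embryos (log2 change 1.40, SE 0.27, adjusted p = 0.0483). The groups did not overlap, and in blastocysts every library had at most 0.251 FPKM. No transcript of it was matched, so its likeness to other genes was not checked.

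Zfp52, a KRAB gene with 14 fingers, had 2.13 and 3.70 FPKM in Tet3-null 2-cell embryos, against 10.9 and 9.09 FPKM in wild-type 2-cell embryos (log2 change -1.51, SE 0.29, adjusted p = 0.0486). Both Tet3-null libraries lay far below both wild-type ones, and blastocysts had 2.18 and 1.35 FPKM with Tet3-null and 1.68 and 0.851 FPKM with wild-type oocytes. Zfp958, a KRAB gene with 13 fingers, had 15.3 and 14.0 FPKM in Tet3-null 2-cell embryos, against 27.2 and 36.0 FPKM in wild-type 2-cell embryos (log2 change -1.05, SE 0.17, adjusted p = 0.038). Its blastocyst libraries overlapped, at 17.8 and 17.1 FPKM for Tet3-null and 17.2 and 17.98 FPKM for wild-type. Zfp367, which has 2 fingers and no KRAB, had 53.9 and 63.0 FPKM in Tet3-null 2-cell embryos, against 97.2 and 115 FPKM in wild-type 2-cell embryos (log2 change -0.85, SE 0.16, adjusted p = 0.0471). It was the most abundant of the 6, and its blastocyst libraries all lay between 15.0 and 17.3 FPKM.

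Zfp825, a KRAB gene, had 12.3 and 10.4 FPKM in Tet3-null 2-cell embryos, against 24.3 and 24.5 FPKM in wild-type 2-cell embryos (log2 change -1.05, SE 0.15, adjusted p = 0.0315). Its level is uncertain because 28.7% of its words also occur in Gm46430. Zfp580 had 0 and 0.223 FPKM in Tet3-null 2-cell embryos, against 1.22 and 1.29 FPKM in wild-type 2-cell embryos (log2 change -1.03, adjusted p = 0.0429). No other member reached the limit in wild-type 2-cell embryos alone, so this difference follows from the choice of members and counts for nothing further.

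**Figure D4:**
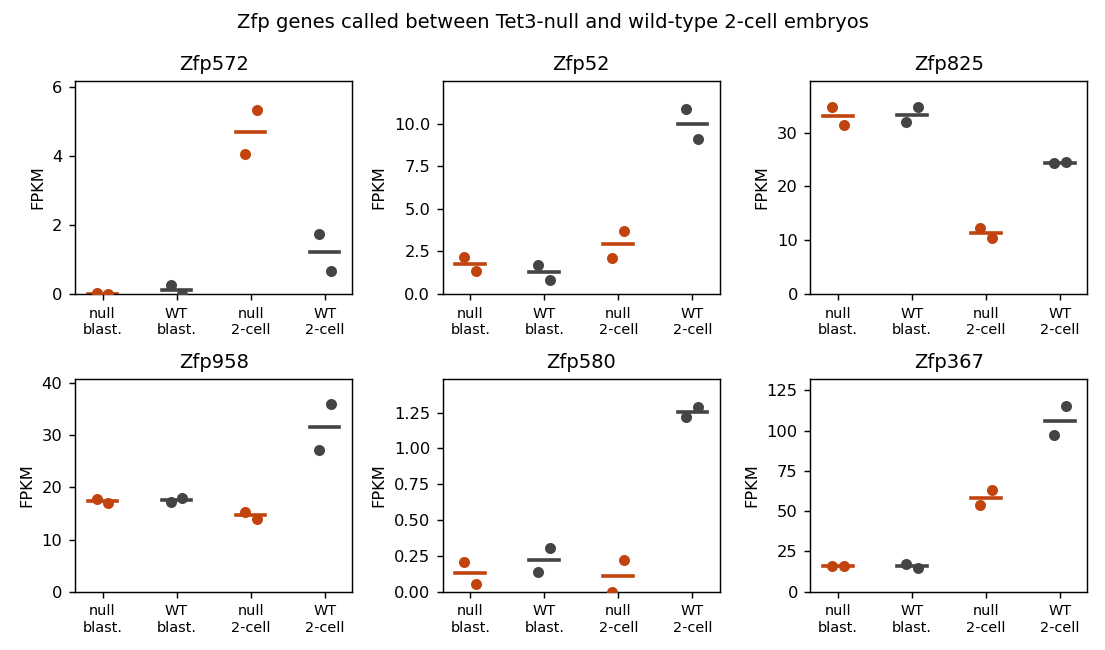
FPKM of the 6 members called between Tet3-null and wild-type 2-cell embryos, in every library (dots) with the group mean (bar), Tet3-null in orange and wild-type (WT) in grey; each vertical axis starts at 0. In 2-cell embryos the 2 dots of each genotype do not overlap, and in blastocysts the genotypes lie close together, as for Zfp958 at 17.1 to 17.98 FPKM.

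These 6 calls changed with the libraries used. The fit takes 1 estimate of spread from all 4 groups, so the blastocyst libraries enter this comparison through it. With the 2-cell libraries fitted alone, no member was called, and 3 of all genes were. Without Tet3-null 2-cell replicate 2, the library that stood apart, 4 members were called, where 2.32% of all genes were. These were Zfp367, Zfp580 and Zfp825, which are 3 of the 6, and Zfp420. The log2 changes of Zfp572, Zfp52 and Zfp958 in that fit were 1.24, -1.80 and -0.98, with adjusted p of 0.101, 0.0503 and 0.0607. Those of Zfp825, Zfp580 and Zfp367 were -0.93, -1.17 and -0.96. Without Tet3-null 2-cell replicate 1, which leaves only the library that stood apart, 54 members or 20.3% were called, where 25.5% of all genes were. In such fits the lone library is assumed to vary like the other groups. Without wild-type 2-cell replicate 1, wild-type 2-cell replicate 2 or any 1 of the 4 blastocyst libraries, no member was called. The direction of all 6 was kept in every alternative. The alternatives reuse the libraries that picked the 6, so this is no separate support, and for Zfp580 the direction follows from the choice of members. Under median-of-ratios scaling, which moved the median of all genes in this comparison by over 0.1 to 0.01, no member was called, and under quantile normalization 1 was higher and 1 lower.

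**Figure D5:**
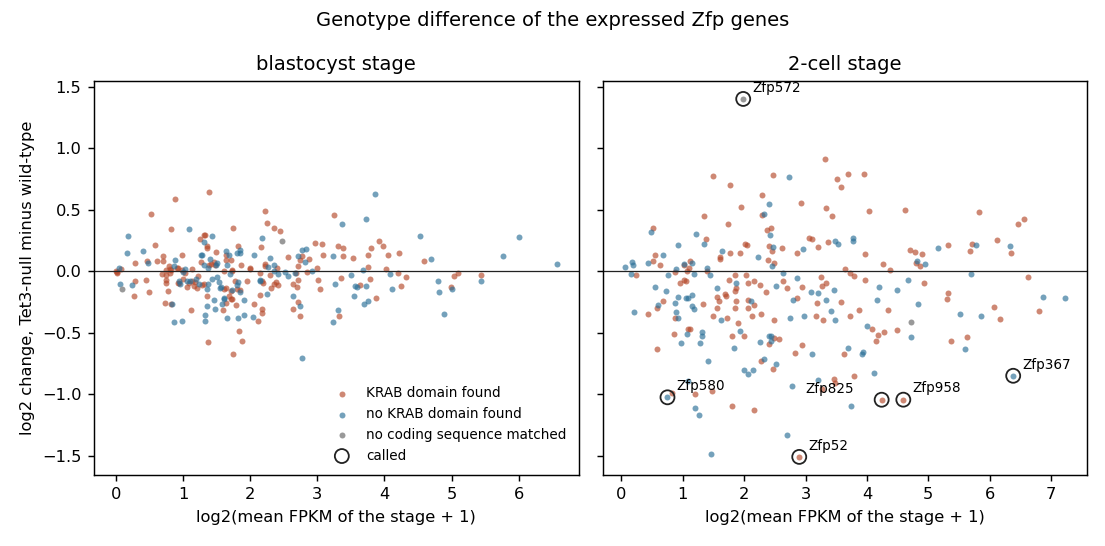
Log2 change between Tet3-null and wild-type against the mean level of the stage, blastocysts at left and 2-cell embryos at right, for KRAB members (red), members without KRAB (blue) and members without a matched coding sequence (grey); circles mark the 6 called in 2-cell embryos. The spread is narrower in blastocysts, where no member was called, than in 2-cell embryos, where 1 was higher and 5 were lower. Replicates also differed less in blastocysts (median 0.17 in either genotype) than in 2-cell embryos (0.34 for Tet3-null, 0.21 for wild-type), while the fit used 1 spread for all groups.

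In blastocysts 0 of 266 members were called by limma, as the plot of change against level shows, where 0.0664% of all genes were called. At an unadjusted p under 0.05 there were 9 members, where 5.46% of all genes reached this. The median was -0.02, as over all genes, and 0.01 under median-of-ratios scaling. Without overlap 36 members were higher and 52 lower, where 19.0% of all genes were higher and 25.3% lower, and after that scaling 48 were higher and 46 lower, where 23.1% and 21.3% of all genes were. The following 8 are the largest differences without overlap, given as values only. Zfp821 had 16.1 and 17.0 FPKM in Tet3-null blastocysts and 11.2 and 9.53 FPKM in wild-type blastocysts. Zfp74 had 2.71 and 1.69 FPKM in Tet3-null blastocysts and 1.08 and 0.958 FPKM in wild-type blastocysts. Zfp963 and Zfp667 also lay above wild-type, by 0.59 and 0.49 on the log2 scale. In the opposite direction, Zfp777 had 1.498 and 1.65 FPKM in Tet3-null blastocysts and 3.40 and 2.85 FPKM in wild-type blastocysts. Zfp53, of the Zfp51 run, had 1.89 and 2.01 FPKM in Tet3-null blastocysts and 3.80 and 2.99 FPKM in wild-type blastocysts. Zfp524 and Zfp759 had log2 differences of -0.71 and -0.58. None of these passed the adjusted test, their adjusted p being at least 0.86.

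The genotype difference itself was compared between the stages. The change in blastocysts minus the change in 2-cell embryos had a median of 0.16 over members, against 0.13 over all genes, and of -0.0022 over members under median-of-ratios scaling. By limma 0 members were called for this difference, where 0.14% of all genes were, and 26 had an unadjusted p under 0.05, where 14.4% of all genes did. For the 6 members called at the 2-cell stage its adjusted p lay between 0.138 and 0.211, so their effect is not shown to differ between stages. Without Tet3-null 2-cell replicate 1, 23 members were called, where 12.6% of all genes were, and without Tet3-null 2-cell replicate 2, 1 (Zfp420), where 0.31% were.

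Other families of zinc finger genes were measured in the same way. Over all genes 35.8% were called higher and 38.4% lower in wild-type blastocysts than in wild-type 2-cell embryos. Of 24 Zbtb genes, which carry a BTB domain, 5 were higher and 11 lower in wild-type blastocysts, with a median log2 change of -0.56. Of 7 Zkscan genes 4 were lower and 0 higher. Of 14 Klf genes 4 were higher and 6 lower, with a median of 0.03. Between the oocyte genotypes 1 Klf gene was called lower in 2-cell embryos and no Zbtb or Zkscan gene at either stage. Of all genes 0.613% were called higher and 2.1% lower in 2-cell embryos, and 0.0664% were called in blastocysts. In 2-cell embryos 5 Zbtb, 2 Zkscan and 3 Klf genes had an unadjusted p under 0.05, where 23.7% of all genes did. In blastocysts 0 Zbtb, 0 Zkscan and 2 Klf genes were under this p, where 5.46% of all genes were.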

How the data were processed

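The authors deposited 1 FPKM value per gene and library, made on mm9 with TopHat2 2.0.10, with Bowtie2 2.1.0 and with Cufflinks 2.2.0, per the submitters' processing notes. How genes were annotated, which settings were used and how reads of close copies were divided is not given in the sources used here. Libraries were made from amplified cDNA with kits that do not mark strand, per the labels' protocols. No read counts were used, so depth is unknown and no counting interval is given, and n = 2 libraries a group limits precision.

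Here, values were taken as log2(FPKM + 1), 13549 genes passed the same level limit as the members, and they were fitted with limma 3.58.1 in R 4.3.3, with 4 group means, a pseudocount of 1, empirical Bayes moderation that follows mean level and two-sided tests (degrees of freedom 4 from the residuals and 3.07 from the prior). Changes on this scale understate those of weakly expressed genes. The fit was tested on simulated data. Members and lists were chosen with earlier results of these data known. Named genes are the called members with the largest changes and no overlap, up to 10 a direction between genotypes (with under 4 called, the 4 largest without overlap a direction) and 6 a direction between stages in wild-type. The 5 highest members of each stage, those on 4 lists of known roles, corepressor genes and the genes nearest the limit were also named. Zfp420 and the members described within runs were named after their values were seen. Permuting 2 against 2 libraries could not have given a p of 0.05, so no permutation test was run.

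RefSeq's GRCm38.p6 table placed 258 members, 257 of the 266 matched by current symbol and 9 by synonym, and 218 had a promoter window. Proteins were translated from GENCODE M21 coding sequences in Python 3.11.15 with Biopython 1.88. A finger is a match of C, any 2 to 4 residues, C, any 12, H, any 3 to 5, H in the longest protein. KRAB was called with HMMER 3.4 at an E-value of at most 0.001, from a profile built on 89 A-box sequences of the members themselves. A gene with over 20% of its 50-base words in transcripts of other genes was taken to have close copies, as 27 members had. Alternatives were other pseudocounts, filters, scalings and fits, and leaving out each library.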

Additional observations from a re-analysis of the deposited data

How the results depend on the processing

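The number of members called between Tet3-null and wild-type 2-cell embryos, 6, was the least stable result. It was 2 with a pseudocount of 0.1, 3 with 0.5, 2 with a mean filter of 1 FPKM and 2 with quantile normalization. It was 0 with median-of-ratios scaling, 0 when the 2-cell libraries were fitted alone and 0 with the replicate number as a block. Leaving out 1 library gave 0 to 54 calls there, and 0 to 23 for the difference of the genotype changes between stages. The median changes between genotypes changed sign with scaling. In 2-cell embryos it was 0.047 with median-of-ratios scaling and 0.059 with quantile normalization, where all genes had 0.011 and 0.0037. In blastocysts it was 0.0118 with either, and -0.064 to 0.0073 leaving out 1 library (the upper end without wild-type blastocyst replicate 1). The median difference of the genotype changes was -0.0022 with median-of-ratios scaling and -0.0103 with quantile normalization. The stage median in wild-type was -0.81 with a pseudocount of 0.1 and -0.47 with quantile normalization, and in Tet3-null -0.69 with a pseudocount of 0.1. The calls between stages stayed within 1.5 times of 171 in both genotypes under every alternative, including 146 and 150 with the replicate block, and 156 in both without members that have close copies, a setting added after the data were seen. Same-numbered libraries of the 2 genotypes did not deviate together over all genes (r = -0.076 in 2-cell embryos, 0.018 in blastocysts), so the numbers were not taken as pairs. Among single genes under the alternatives, 352 results kept their side of the threshold, 77 lost their call and none were reversed. Most of the 352 were stage calls or blastocyst genes that were never called. All 77 losses were among the 6 members called between the 2-cell groups. With all libraries kept, Zfp825 stayed called in 6 of 9 alternatives, Zfp958 in 5 of 9 and Zfp580 in 3 of 8. Zfp572 did so in 1 of 9, and Zfp52 and Zfp367 in 0 of 9. For the counts and medians that moved, the cause was not tested. Depth is unknown, and members near 1 FPKM are the least certain.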
